A study of Mus musculus with 6 samples.

Results

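Axon guidance genes of the semaphorin, ephrin, Slit and netrin families were examined in endothelial cells (ECs) of the mouse lung 7 days after pneumonectomy (PNX), the removal of the left lung, after which the remaining lobes grow. The members were all rows of the deposited transcript tables whose gene symbol belonged to the semaphorins of classes 3 to 7, the plexins, the neuropilins, the ephrins and their Eph receptors, the netrins with Dcc and the Unc5 receptors, or the Slits and Robos. The rule read the symbols alone and used no measured value. It gave 69 genes, with 114 transcripts, of 24063 gene symbols. C57BL6 male mice had either PNX or a sham operation, in which the chest was opened and the lung left in place, and the PNX lungs were taken 7 days later; the labels give no interval of its own for sham. The sample labels give the age as 8 weeks, while the methods of the study give an older range for these operations. ECs were taken from the lung with magnetic beads carrying an antibody to CD31, a surface protein of endothelium, and 3 RNA libraries per group were sequenced, each pooled from 2 mice. No other treatment or genotype is given in the labels. A pool of 2 mice hides the difference between these animals, and bead selection on CD31 does not exclude platelets, some leukocytes or cells that stick to ECs.

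Guidance cues were first known for steering growing axons, and the same ligands and receptors act in vessels. Secreted class 3 semaphorins bind neuropilins, which hold plexins as the signalling partner, and membrane semaphorins bind plexins directly. Ephrins are ligands anchored to one cell that signal through Eph receptor tyrosine kinases on its neighbour, and ephrin-B2 and EphB4 are the textbook markers of arterial and venous endothelium. Netrins act through Dcc and the Unc5 receptors, Slits act through Robo receptors, and Robo4 is the member of that family found mostly in endothelium.

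Total counts ranged from 29526989 to 81282871 per library and were lowest in replicate 3 of each group. By the labels, replicates 1 and 2 of each group were taken over from an earlier record, so these form an earlier deposit and both replicates 3 a later one. Replicates 1 and 2 of a group differed by little more than counting error, with a chi-square per degree of freedom of 1.75 in sham and 1.57 in PNX, against 67.9 to 86.4 for pairs with replicate 3. Replicates 1 and 2 were therefore summed and counted as 1 sample, which left 2 samples per group. Nothing in the labels says that these 2 came from separate operations on separate days. In a fit with the group alone, p-values therefore measure the spread between them, which may be technical. The 12 endothelial markers were present in every library, with summed levels of 11520 to 14352 CPM (counts scaled to library size with TMM factors) in sham and 10177 to 11548 CPM in PNX.

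The study's methods required an adjusted p under 0.01 together with a log2 fold change beyond 1. There the cutoffs were applied to DESeq2 results with 3 libraries per group, and genes passed. With edgeR's quasi-likelihood test on the 4 samples, a different test and set of samples, no member passed these cutoffs, and 0.0% of all 16598 genes tested did. The lowest adjusted p of a member was 0.120, for Efna5, and 10 of the 64 members tested (15.6%) had an unadjusted p under 0.05, against 12.5% of all genes. DESeq2 on the same samples called 3 members (4.69%) against 3.45% of all genes, and limma-voom called 0 members and 0.0% of all genes. These shares are near the background. Because the deposit is a shared label, the same fit was also made with the deposit as a replicate block. It called Efna5, Ephb1 and Ephb2, all higher in PNX, which is 4.69% of the 64 tested, while 5.12% of all genes were called. At an adjusted p under 0.05 with no minimum fold, the fit with the replicate block passed 24 of 64 members, or 37.5%, against 21.6% of all genes. Of these, 14 were higher in PNX, or 21.9% against 11.5% of all genes, and 10 were lower, or 15.6% against 10.1%. Over 9 other settings that kept the block, 17 of the 24 always passed the wider rule and none changed direction, while Efna4, Efnb1, Plxnd1, Sema3b, Sema3e, Sema4c and Sema4f missed it in at least 1. These settings refitted the same samples or left out a near-duplicate library, and none left out a whole sample. They show dependence on the processing and cannot show whether a difference would recur in other samples. The block fit left 1 residual degree of freedom among the samples. Its p-values measure how far the difference between PNX and sham disagrees between the deposits, which may also be technical. They do not measure the spread between the 2 samples of a group. The words rose and fell below refer to this wider rule in the fit with the replicate block, and without the block the adjusted p of every member was above it. A 2 against 2 comparison of single values cannot give an exact two-sided permutation p below 0.333.

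The promoters of the 3 called genes, which moved the same way, are given first, with that of Efnb2, the ephrin-B with the highest level, which moved the other way. Each is 300 bases, from 250 before to 50 after the transcript start, from RefSeq on GRCm38.p6, read 5′ to 3′ on the gene's strand. Capitals mark E-boxes (CANNTG, which reads the same on both strands) and GC boxes (GGGCGG on either strand), each searched without regard to the other. The positions are chr17:62881268-62881567 for Efna5, chr9:102354644-102354943 for Ephb1, chr4:136835963-136836262 for Ephb2 and chr8:8661193-8661492 for Efnb2, all on the minus strand.
Efna5: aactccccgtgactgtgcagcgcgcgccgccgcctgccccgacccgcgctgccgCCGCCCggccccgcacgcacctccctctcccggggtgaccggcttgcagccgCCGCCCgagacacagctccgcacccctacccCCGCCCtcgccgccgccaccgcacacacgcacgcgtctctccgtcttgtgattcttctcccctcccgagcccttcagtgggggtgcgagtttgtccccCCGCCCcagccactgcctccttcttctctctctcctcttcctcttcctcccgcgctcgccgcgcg
Ephb1: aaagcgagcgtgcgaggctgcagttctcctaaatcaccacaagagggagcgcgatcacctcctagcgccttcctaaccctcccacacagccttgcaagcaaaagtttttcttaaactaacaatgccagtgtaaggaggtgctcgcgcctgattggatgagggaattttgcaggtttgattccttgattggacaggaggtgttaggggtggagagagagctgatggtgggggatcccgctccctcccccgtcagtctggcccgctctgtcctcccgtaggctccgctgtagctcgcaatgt
Ephb2: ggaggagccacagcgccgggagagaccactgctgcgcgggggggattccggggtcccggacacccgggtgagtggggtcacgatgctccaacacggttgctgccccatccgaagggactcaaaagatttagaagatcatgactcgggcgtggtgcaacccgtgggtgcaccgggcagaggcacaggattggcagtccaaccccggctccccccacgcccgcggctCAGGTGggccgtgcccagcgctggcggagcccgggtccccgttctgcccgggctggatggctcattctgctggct
Efnb2: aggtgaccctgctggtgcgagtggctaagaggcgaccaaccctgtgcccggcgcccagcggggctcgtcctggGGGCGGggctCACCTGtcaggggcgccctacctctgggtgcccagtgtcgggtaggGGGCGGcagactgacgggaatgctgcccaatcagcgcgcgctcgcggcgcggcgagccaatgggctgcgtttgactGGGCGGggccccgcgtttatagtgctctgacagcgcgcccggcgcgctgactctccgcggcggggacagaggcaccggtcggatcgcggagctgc

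The Efna5 window held 4 GC boxes and no E-box, and had a GC content of 73.3% with 38 CpG sites. The Ephb1 window held neither motif, with a GC content of 55.7% and 14 CpG sites. The Ephb2 window held 1 E-box, and the Efnb2 window held 1 E-box, 3 GC boxes and 1 TATAAA. The latter lies on the opposite strand, so that it reads tttata in the sequence above, where it is not marked. The called genes thus shared no motif among those searched. Of the members, 59 matched the promoter table, with 75 promoters. A GC box was in 70.7% of member promoters and 35.7% of all 32851 promoters, and an E-box in 50.7% against 72.3%. TATAAA on either strand was in 2.7% of member promoters and 13.6% of all. Their median GC content was 64.3% against 52.7%, and the median number of CpG sites was 19 against 7. These are descriptions of letters in a window, and they were not tested.

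Levels between genes can be compared only per length, and for this the deposited TPM, a value scaled for transcript length and for the library, of each gene's transcript with the most counts was used. The secreted semaphorins Sema3c, Sema3g and Sema3f and the neuropilin Nrp1, which also binds VEGF-A, had the highest levels in sham by this measure, while the other 4 class 3 semaphorins were between 6.17 and 18.3 TPM. Sema3c had a mean TPM of 372, Nrp1 253, Sema3g 237 and Sema3f 228. Efnb2 followed with 156, Ephb4 with 119, Sema7a with 114, Efnb1 with 107, Robo4 with 98.5 and Efna1 with 98.1. Sham libraries ranged from 324 to 399 for Sema3c, from 214 to 273 for Nrp1, from 212 to 252 for Sema3g and from 172 to 258 for Sema3f, so the order of the last 3 lies within their spread. The highest plexin was Plxna1 at 74.6, the highest netrin Ntn4 at 71.9, the highest EphA Epha2 at 43.3, the highest Slit Slit3 at 24.9 and the highest netrin receptor Unc5b at 17.5. Summing the transcripts of a gene changes this order, and a read shared by several transcripts may then be counted more than once. Summed, Sema6d (333) came next after Sema3c and above Nrp1, Ephb4 (239) stood beside Sema3g, Efna1 (194) was above Efnb2, and Plxnb2 (141) and Slit2 (45.4) were above Plxna1 and Slit3. The sum also raised Nrp2 from 27.0 to 158 TPM, Sema3b from 18.3 to 116 and Sema4a from 27.0 to 111.

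**Figure D1:**
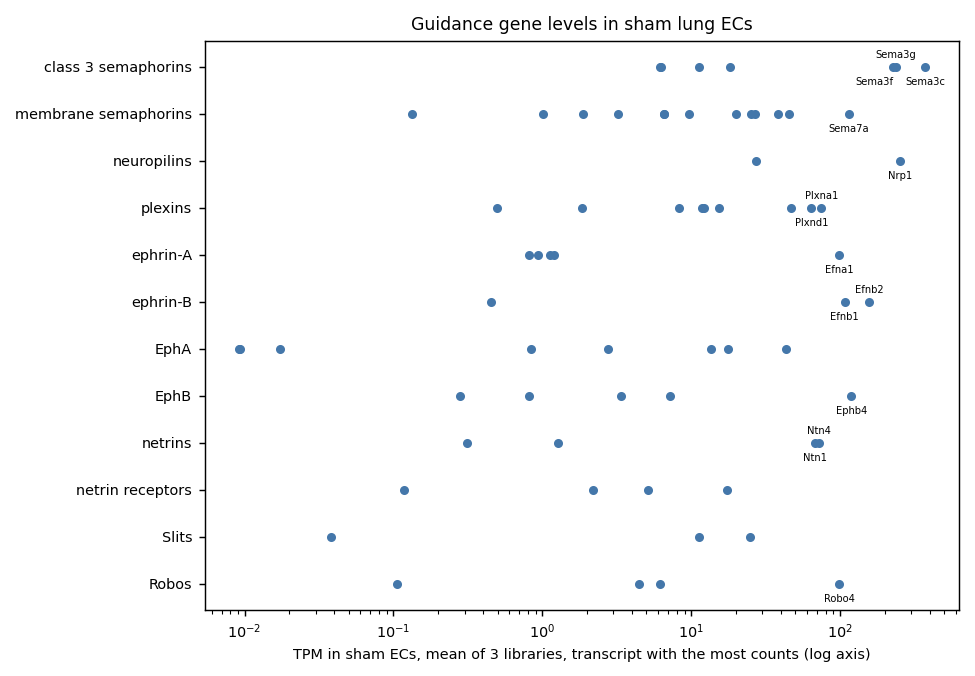
Each point is 1 guidance gene, placed by its mean TPM over the 3 sham libraries (log axis, transcript with the most counts) within its role group; genes of at least 60 TPM are named, and Dcc and Epha6, listed at 0 in sham, are not drawn. The highest point is Sema3c at 372 TPM, 4 of the 7 class 3 semaphorins lie at 18.3 TPM or below, and the 3 ephrin-B genes span 0.451 to 156 TPM. Genes with several transcripts lie higher when these are summed, such as Sema3b, at 18.3 TPM here and 116 TPM summed.

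At the other end of the range, 5 members had too few counts to be tested. Epha6 had no count in any library. Dcc, the netrin receptor of axons, had 0 counts in each sham library and 1, 0 and 2 in PNX, while Epha5, Epha8 and Epha10 had at most 5 counts in a library. The limit that a count of 0 allows, 3 counts, is 0.0369 to 0.102 CPM per library and covers counting error only. Whether these genes differed was not detectable at this depth.

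Among the class 3 semaphorins, Sema3d and Sema3b rose and Sema3g and Sema3e fell, while Sema3a, Sema3c and Sema3f did not pass. Sema3d (chr5:12383385-12588948, GRCm38, plus strand) was at 15.7, 15.9 and 16.7 CPM in sham replicates 1, 2 and 3 and at 23.6, 23.8 and 30.0 CPM in PNX. All PNX libraries lay above all sham libraries. The log2 fold change of Sema3d was 0.71 ± 0.11 (SE, 4 samples) with an adjusted p of 0.00478 with the block and 0.219 without it. Sema3b had log2 0.44 ± 0.13 and an adjusted p of 0.0464 with the block. Sema3g, a semaphorin of arterial ECs, was at 361, 368 and 313 CPM in sham against 276, 273 and 232 CPM in PNX, with no overlap, and its log2 fold change was −0.42 ± 0.09, with an adjusted p of 0.0163 with the block. Sema3e, which signals through plexin D1 without a neuropilin, was at 38.3, 36.3 and 17.6 CPM in sham against 28.7, 28.0 and 7.78 CPM in PNX. The groups overlapped for Sema3e, since sham replicate 3 lay below PNX replicates 1 and 2, and only within a deposit was PNX lower each time. Its log2 fold change was −0.73 ± 0.16, with an adjusted p of 0.0197 with the block and 0.805 without it. Without the block, its log2 fold change of −0.61 became −1.03 when sham replicate 3 was left out and 0.025 when PNX replicate 3 was, and that of Sema3b went from 0.43 to 0.25 without sham replicate 3. Sema3c (chr5:17574281-17730268, plus strand), the member with the highest level, was at 780, 767 and 644 CPM in sham against 893, 893 and 730 CPM in PNX. The Sema3c groups overlapped, its log2 fold change was 0.20 ± 0.10, and its adjusted p was 0.227 with the block.

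Of the 13 membrane and GPI-linked semaphorins, Sema4c, Sema6b and Sema7a rose, Sema4d, Sema4f and Sema6a fell, and the other 7 did not pass. Sema6b was at 28.5, 30.9 and 27.6 CPM in sham against 43.0, 42.1 and 43.2 CPM in PNX, a log2 fold change of 0.58 ± 0.09 with an adjusted p of 0.00473 with the block and 0.190 without it. Sema6a, a ligand of plexins A2 and A4, was at 106, 105 and 104 CPM in sham against 73.1, 74.2 and 77.9 CPM in PNX, a log2 fold change of −0.47 ± 0.08 with an adjusted p of 0.00815 with the block. Sema6a and Sema6b thus kept tight groups in both deposits, and they moved in opposite directions. Sema7a, the GPI-linked semaphorin, was at 158, 159 and 128 CPM in sham against 204, 204 and 171 CPM in PNX, so that every PNX library was above every sham library. The log2 fold change was 0.39 ± 0.09 for Sema7a and 0.39 ± 0.10 for Sema4c, with adjusted p of 0.0175 and 0.0377 with the block. Sema4d, the ligand of plexin B1, differed more between deposits than between groups, at 44.4, 43.9 and 127 CPM in sham against 31.6, 32.6 and 93.1 CPM in PNX. PNX was lower than sham within each deposit for Sema4d, with log2 −0.46 ± 0.08 and an adjusted p of 0.00783 with the block against 0.877 without it. Leaving out a replicate 3 without the block sets unequal deposits against each other, and the log2 fold change of Sema4d then went from −0.44 to 0.50 without sham replicate 3 and −1.42 without PNX replicate 3. Sema7a went from 0.39 to 0.24 without sham replicate 3, and Sema4c from 0.40 to 0.26 without PNX replicate 3. Sema4f was at 7.48, 7.97 and 6.92 CPM in sham against 6.04, 5.75 and 4.56 CPM in PNX, with log2 −0.48 ± 0.14 and an adjusted p of 0.0496 with the block. This is just under the threshold, and of the 9 other settings with the block Sema4f passed only with the 6 libraries as separate replicates. Sema6d, with the most counts of the class, had log2 0.042 ± 0.12, and its adjusted p was 0.847 with the block.

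The neuropilins moved apart. Nrp2 (chr1:62703285-62818695, plus strand), the neuropilin of veins and lymphatics that binds VEGF-C, was at 389, 396 and 360 CPM in sham against 532, 540 and 612 CPM in PNX, or 377 ± 29.1 against 576 ± 60.2 CPM (SD, n = 2 samples). Nrp1 (chr8:128358604-128503363, plus strand) was at 638, 636 and 509 CPM in sham against 475, 479 and 388 CPM in PNX, or 575 ± 99.9 against 433 ± 58.2 CPM. For neither gene did the groups overlap. Nrp2 rose by log2 0.61 ± 0.12 with an adjusted p of 0.0120 with the block, and Nrp1 fell by 0.40 ± 0.10 on the log2 scale with an adjusted p of 0.0272. Without the block the adjusted p values were 0.245 for Nrp2 and 0.518 for Nrp1.

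Plexins, the signalling receptors of semaphorins, moved little. Of 9 tested, Plxnb2 and Plxnd1 rose, by log2 0.38 ± 0.10 and 0.30 ± 0.08, with adjusted p of 0.0331 and 0.0450 with the block. Plxnb2 was at 312, 312 and 469 CPM in sham against 433, 434 and 571 CPM in PNX, so the groups overlapped and PNX was higher within each deposit. Without the block, its log2 fold change of 0.37 became 0.69 when sham replicate 3 was left out and 0.15 when PNX replicate 3 was, and that of Plxnd1 went from 0.30 to 0.46 and 0.13. Plxna1 (chr6:89316314-89362620, minus strand), a partner of Nrp1, was at 266, 272 and 264 CPM in sham against 234, 236 and 237 CPM in PNX, without overlap. The Plxna1 difference was small, log2 −0.18 ± 0.09, and its adjusted p was 0.206 with the block. The log2 fold changes of all 9 plexins lay between −0.18 and 0.38.

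**Figure D2:**
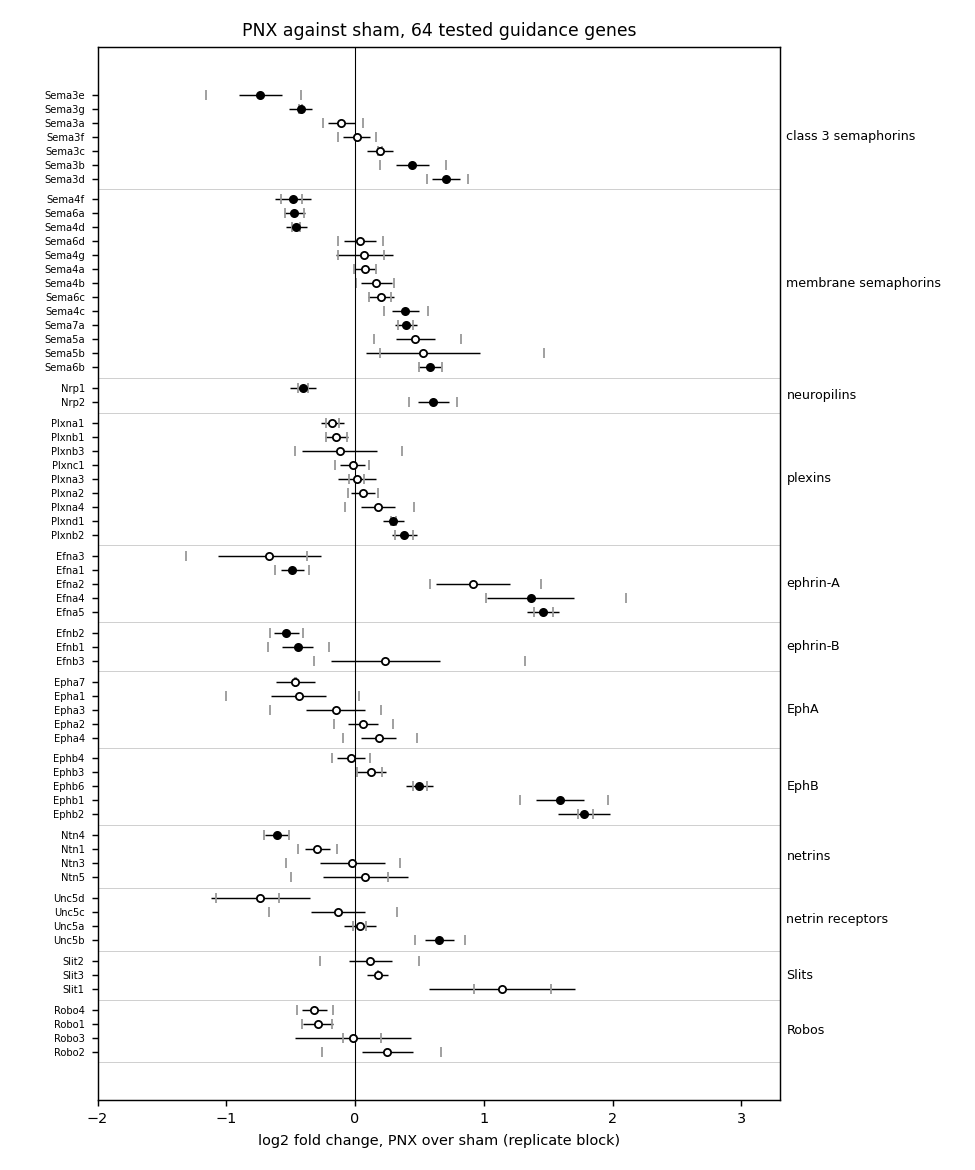
Points are log2 fold changes of PNX over sham in the edgeR fit with the replicate block, for the 64 tested members by role group, with bars of 1 SE; filled points have an adjusted p under 0.05 and grey ticks mark the log2 ratio of each deposit on its own. Ephb2, Ephb1 and Efna5 lie farthest to the right among filled points, at 1.78, 1.59 and 1.46, and Sema3e farthest to the left at −0.73.

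The ephrin-A genes held the member with the lowest p. Efna5 (ENSMUSG00000048915.12, chr17:62604184-62881317, minus strand), the ephrin-A whose promoter holds 4 GC boxes, was at 4.52, 4.52 and 5.76 CPM in sham replicates 1, 2 and 3. In PNX it was at 12.2, 11.9 and 16.4 CPM, so the lowest PNX library was above the highest sham library. The means were 5.14 ± 0.801 CPM in sham against 14.3 ± 3.24 CPM in PNX (SD, n = 2 samples), and PNX was 2.62-fold higher in the earlier deposit and 2.91-fold higher in the later. The log2 fold change of Efna5 was 1.46 ± 0.12 with an adjusted p of 2.96e-04 with the block, and 1.48 ± 0.25 with an adjusted p of 0.120 without it. Efna5 was also called in the fit of the 6 libraries as separate replicates, the single member of 63 (1.59%) that was, against 2.51% of all genes in that fit. Near-duplicate libraries count as replicates there, so its p-values are too small and the call adds no independent sample. The call was lost when replicate 1 or 2 of either group was left out, where 0 to 49 of all genes were called. Efna4 was at 0.583, 0.642 and 0.327 CPM in sham against 1.17, 1.36 and 1.37 CPM in PNX, near the depth limit, and rose by log2 1.36 ± 0.34 with an adjusted p of 0.0282 with the block. Efna1, the ephrin-A with the highest level and a ligand of EphA2, went the other way. It was at 119, 118 and 102 CPM in sham against 93.6, 94.4 and 64.9 CPM in PNX, without overlap, and fell by 0.49 ± 0.09 on the log2 scale, with an adjusted p of 0.0108 with the block. Without PNX replicate 3 the log2 fold change of Efna1 in the 4 samples without the block went from −0.47 to −0.24. Efna2 and Efna3 did not pass, with log2 0.92 ± 0.29 and −0.67 ± 0.40.

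Both abundant ephrin-B genes fell. Efnb2 (ENSMUSG00000001300.16, chr8:8617434-8661242, minus strand), the arterial ephrin, was at 292, 296 and 212 CPM in sham against 188, 191 and 157 CPM in PNX. The groups did not overlap, and the means were 254 ± 61.8 CPM in sham against 174 ± 21.0 CPM in PNX (SD, n = 2 samples). The log2 fold change of Efnb2 was −0.53 ± 0.10 with an adjusted p of 0.00917 with the block and 0.422 without it. Efnb1 was at 157, 160 and 99.6 CPM in sham against 101, 101 and 84.8 CPM in PNX. PNX replicates 1 and 2 were just above sham replicate 3, so the groups of Efnb1 overlapped, and its log2 fold change was −0.45 ± 0.12 with an adjusted p of 0.0365 with the block. Without the block it was −0.48, and −0.77 when sham replicate 3 was left out. Efnb3 was below 1 CPM in every library and did not pass.

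EphB receptors held the other called members. Ephb1 (ENSMUSG00000032537.15, chr9:101922128-102354693, minus strand) was at 2.72, 2.57 and 3.80 CPM in sham against 6.78, 6.28 and 14.6 CPM in PNX. PNX replicate 3 stood well above the other PNX libraries, but all 3 were above sham. The log2 fold change of Ephb1 was 1.59 ± 0.19 with an adjusted p of 0.00159 with the block and 1.72 ± 0.46 with 0.246 without it, and leaving out PNX replicate 3 lowered the latter to 1.03. Ephb2 (ENSMUSG00000028664.14, chr4:136647539-136835988, minus strand) was at 0.868, 0.893 and 1.48 CPM in sham against 3.34, 2.56 and 5.23 CPM in PNX. All PNX libraries were above all sham libraries again. Ephb2 had a log2 fold change of 1.78 ± 0.20 with an adjusted p of 0.00124 with the block and 1.82 ± 0.45 with 0.216 without it. Leaving out PNX replicate 1 from the fit with the block left Efna5 as the single call, so the calls of Ephb1 and Ephb2 were lost without that library, but their log2 fold changes stayed at 1.57 and 1.66. Efna5, Ephb1 and Ephb2 each have 2 transcripts whose counts agreed in every library to within 1 read, so their summed counts may hold each read 2 times, and precision read from them is then too high. With the highest transcript of each gene alone, the fit with the block also called Efna5, Ephb1 and Ephb2.

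Ephb4 (ENSMUSG00000029710.15, chr5:137350109-137378669, plus strand), the venous receptor of ephrin-B2 and by far the most abundant Eph receptor per length, was at 445, 458 and 331 CPM in sham against 402, 409 and 352 CPM in PNX. The PNX range lay within the sham range, with a log2 fold change of −0.033 ± 0.11 and an adjusted p of 0.866 with the block. Ephb6, an Eph receptor without kinase activity, rose by log2 0.50 ± 0.11 with an adjusted p of 0.0158 with the block, and Ephb3 had 0.12 ± 0.11. Ephb6 was at 7.72, 7.51 and 15.1 CPM in sham against 10.1, 11.1 and 21.9 CPM in PNX. Because its level differed between deposits, its log2 fold change of 0.52 without the block became 1.08 when sham replicate 3 was left out and −0.10 when PNX replicate 3 was. In the sham libraries Ephb4 was at 94.5 to 133 TPM and Ephb1 and Ephb2 had means of 0.817 and 0.280 TPM, so both called receptors were at low levels. Zan lies opposite to part of Ephb4, and its reads cannot be told apart from those of Ephb4 if strand was not counted.

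None of the 5 tested EphA receptors passed. Epha2, the receptor of ephrin-A1 and the highest of the group, was at 67.3, 67.2 and 68.5 CPM in sham against 61.2, 61.4 and 82.2 CPM in PNX. The deposits disagreed on its direction, and its log2 fold change was 0.060 ± 0.12. Epha4, with log2 0.18 ± 0.14, split the same way, at 35.4, 33.9 and 33.0 CPM in sham against 33.2, 32.9 and 45.3 CPM in PNX. Epha7 was at 6.04, 4.74 and 5.82 CPM in sham against 4.29, 3.70 and 4.12 CPM in PNX, without overlap, with log2 −0.46 ± 0.15 and an adjusted p of 0.0671 with the block.

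**Figure D3:**
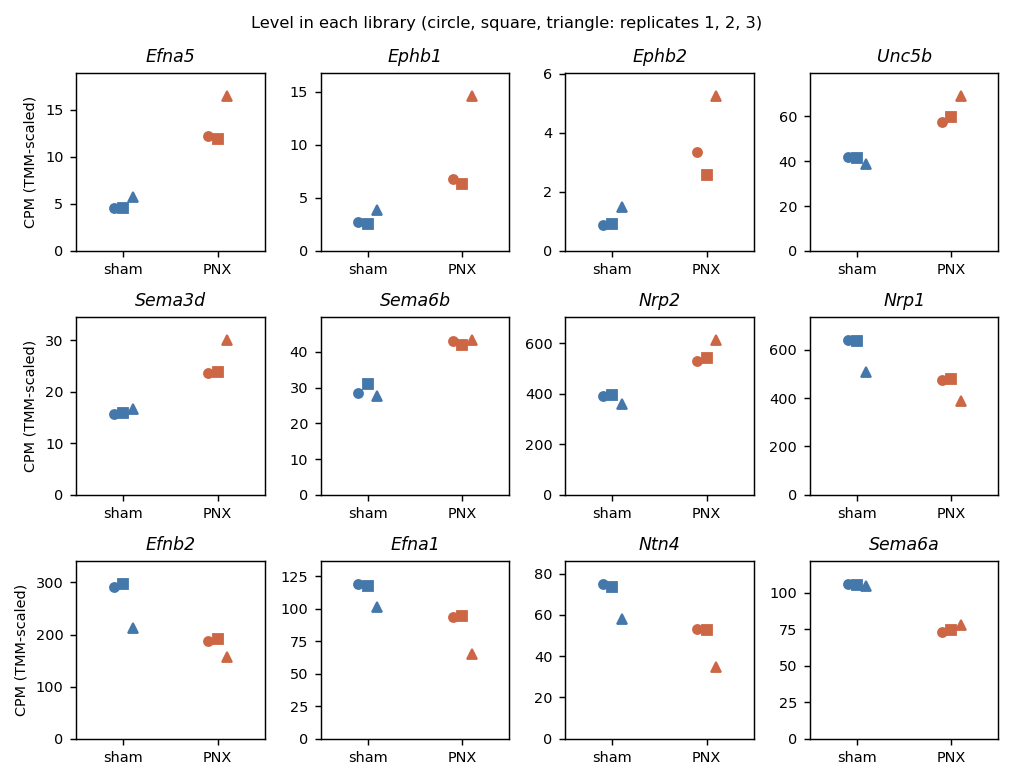
Each panel shows 1 guidance gene in the 3 sham and 3 PNX libraries, in CPM scaled by TMM factors from 0; circles, squares and triangles are replicates 1, 2 and 3, and replicates 1 and 2 of a group count as 1 sample. In all 12 genes, for example Efna5 at 4.52 to 5.76 CPM in sham against 11.9 to 16.4 CPM in PNX, the groups do not overlap. The 12 are a selection, and the groups of other members, such as Sema3c and Ephb4, overlap. Both PNX samples were above both sham samples for 21.9% of the 64 tested members and below for 21.9%, against 21.6% and 21.2% of all genes.

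Ntn4, a laminin-like netrin of basement membranes, fell. It was at 74.8, 73.4 and 58.1 CPM in sham against 53.1, 52.9 and 34.9 CPM in PNX, with log2 −0.61 ± 0.09 and an adjusted p of 0.00387 with the block and 0.455 without it. The groups of Ntn4 did not overlap, its log2 fold change without the block went from −0.59 to −0.33 when PNX replicate 3 was left out, and short gene models lie opposite to it. Ntn1, the classical netrin, was at 164, 165 and 134 CPM in sham against 124, 123 and 119 CPM in PNX, also without overlap, but its adjusted p with the block was 0.0729. Its receptor Unc5b (chr10:60762593-60831581, minus strand), the Unc5 of endothelium, was at 41.7, 41.5 and 38.8 CPM in sham against 57.5, 59.7 and 69.0 CPM in PNX. Unc5b rose by log2 0.66 ± 0.11 with an adjusted p of 0.00654 with the block and 0.197 without it, and every PNX library was above every sham library. Unc5a, Unc5c and Unc5d did not pass, and Unc5c went opposite ways in the deposits, at 14.6, 13.9 and 20.4 CPM in sham against 17.2, 19.4 and 12.6 CPM in PNX. Ntn3 and Ntn5 were near or below 3 CPM, and Ntn3 overlaps Tbc1d24 on the same strand, so their counts are uncertain.

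No Slit or Robo passed. Slit2, a ligand of Robo1, was at 144, 143 and 173 CPM in sham against 209, 205 and 141 CPM in PNX, higher in PNX in the earlier deposit and lower in the later. Slit3 was at 46.4, 46.5 and 55.0 CPM in sham against 52.7, 54.4 and 61.0 CPM in PNX, a log2 fold change of 0.18 ± 0.08 with an adjusted p of 0.168 with the block. Robo4 (chr9:37401897-37415115, plus strand) was at 152, 156 and 125 CPM in sham against 115, 114 and 109 CPM in PNX. All PNX libraries were below all sham libraries for Robo4, whose log2 fold change was −0.31 ± 0.10 with an adjusted p of 0.0549 with the block, just above the threshold. Robo2 split by deposit like Slit2, at 21.5, 20.2 and 17.6 CPM in sham against 33.3, 34.4 and 14.4 CPM in PNX.

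Ratios between partners were taken within a library from the TPM of the highest transcript, so that no scaling between libraries enters. The pairs were chosen after the values were seen, and the ratios are descriptions. Nrp2 over Nrp1 was 0.102, 0.103 and 0.117 in sham and 0.185, 0.186 and 0.259 in PNX. Its size depends on the transcripts taken, since Nrp2 has 6 and Nrp1 has 1. Summed over its transcripts, Nrp2 had a mean TPM of 158 in sham, below Nrp1 (253), and of 231 in PNX, above Nrp1 (188). Efnb2 over Ephb4 was 1.32, 1.31 and 1.30 in sham and 0.945, 0.945 and 0.902 in PNX, lower in each PNX library than in each sham library. Whether this ratio is above or below 1 depends on the transcripts taken, since Ephb4 summed over its 2 transcripts of equal count had mean TPM of 239 in sham and 222 in PNX, above Efnb2 (156 and 103) in both groups. The spread of this ratio within a group was smaller, relative to its level, than that of either gene's CPM. Ntn1 over Unc5b was 4.02, 4.07 and 3.53 in sham and 2.21, 2.10 and 1.77 in PNX, and Sema3g over Sema3c was 0.621, 0.644 and 0.654 in sham and 0.415, 0.4105 and 0.426 in PNX. A ratio shows unequal change of its 2 genes and not which of them changed.

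**Figure D4:**
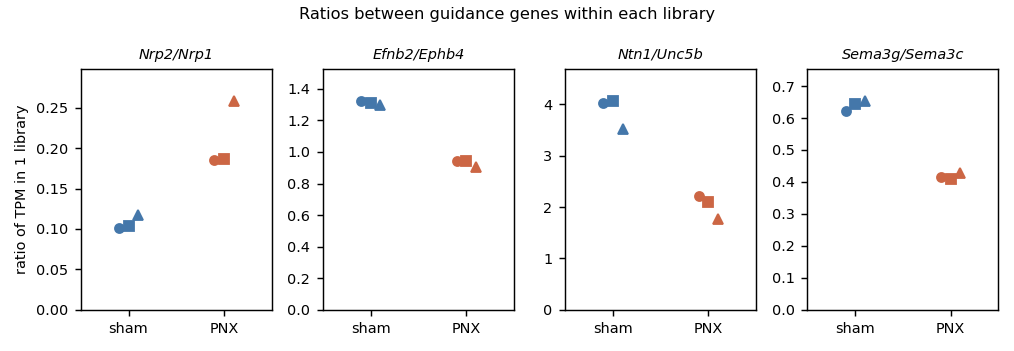
Each point is the ratio of the TPM of 2 guidance genes in 1 library, on axes from 0, with circles, squares and triangles for replicates 1, 2 and 3 of sham and PNX. Efnb2 over Ephb4 is 1.30 to 1.32 in sham and 0.902 to 0.945 in PNX, and the groups of the other 3 ratios do not overlap either.

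Over all tested members, directions were counted within each deposit and between the samples. Within both deposits 23 members were higher in PNX, 18 were lower and 23 went opposite ways, so 64.1% had the same sign in both, against 75.3% of all genes tested. Both PNX samples were above both sham samples for 14 members (21.9%) and below for 14 (21.9%), against 21.6% and 21.2% of all genes. These shares are near the background and are not a result about the family. The median log2 fold change of the members was 0.062 with the block and −0.013 for all genes.

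**Figure D5:**
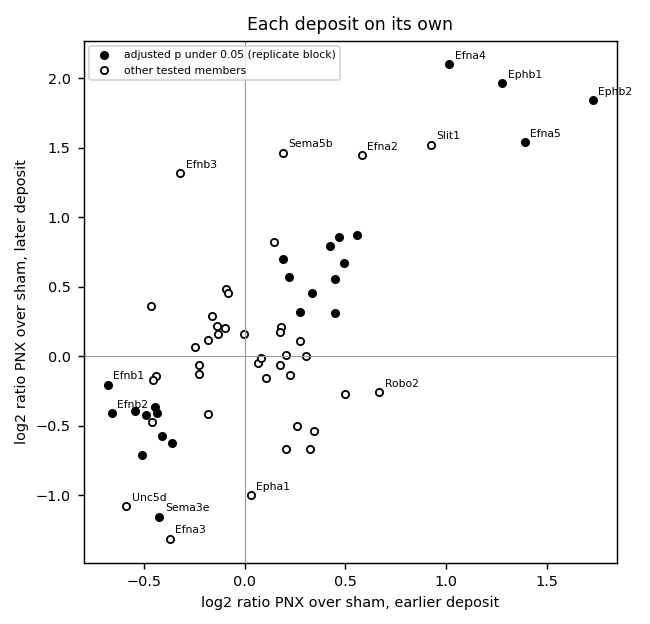
Each point is 1 of the 64 tested members, by its log2 ratio of PNX over sham in the earlier deposit (x axis) and in the later (y axis); filled points have an adjusted p under 0.05 with the replicate block. Efna5, Ephb1, Ephb2 and Efna4 lie above 1 on both axes, while 23 members lie in the quadrants of opposite sign.

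Other genes of these pathways, 64 co-receptors, alternative ligands and cytoplasmic effectors, were read in the same fits, and 59 were tested. Without the block 0 were called, and with it 4 were called (6.78% against 5.12% of all genes), all higher in PNX. These were Chl1 and Nrcam, L1-family adhesion molecules that act with neuropilins, Flrt2, an alternative ligand of Unc5 receptors, and Crmp1, a cytoplasmic mediator of semaphorin 3A signals. Chl1 was at 0.149, 0.126 and 0.297 CPM in sham against 4.99, 4.95 and 5.57 CPM in PNX, and its adjusted p was 5.99e-05 with the block and 0.0720 without it. Flrt2 was at 11.5, 10.8 and 14.4 CPM in sham against 24.3, 24.3 and 41.2 CPM in PNX. Nrcam was at 13.6, 13.5 and 15.2 CPM in sham against 44.0, 46.6 and 25.4 CPM in PNX, and Crmp1 at 1.20, 1.45 and 2.73 CPM against 5.23, 5.24 and 7.98 CPM. At an adjusted p under 0.05 with the block, 12 of the list were higher (20.3% against 11.5% of all genes) and 4 lower (Grb7, Plxdc1, Plxdc2 and Sipa1l1, 6.78% against 10.1%), and the list's median log2 fold change was 0.052.

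Markers of other cells moved with the groups, and their part in the results above was not tested. None of the listed markers that the files hold was at 0 in all libraries. The 8 matrix fibroblast markers summed to 1081 to 1313 CPM in sham against 2940 to 3614 CPM in PNX, with 4 called higher with the block, and the 6 mesothelial markers to 158 to 383 CPM against 328 to 856 CPM, also with 4 called higher. The 8 epithelial markers summed to 9457 to 9991 CPM in sham against 2902 to 6514 CPM in PNX, with 3 called lower. The 8 cell division genes summed to 70.0 to 124 CPM in sham against 592 to 896 CPM in PNX, and all 8 were called higher. Of 7 macrophage markers 2 were called higher, of 8 mural markers 1 (Rgs5), of 4 neural and Schwann markers tested 1 (Tubb3), and of 8 lymphocyte and 6 lymphatic markers tested none. At the wider rule 2 of 12 endothelial markers were lower (Tek and Eng), 6 of 8 lymphocyte markers were lower, and Prox1 and Pdpn were higher while Lyve1 was lower. In such bulk samples fewer cells of a type and less RNA per cell cannot be told apart.

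Several ligands differed between deposits more than between groups. Sema3a, the prototype repellent of axons, was at 67.2 and 63.8 CPM in sham replicates 1 and 2 and 18.3 CPM in replicate 3, and at 57.8, 54.7 and 18.8 CPM in PNX. The 8 epithelial markers did not move together between deposits in sham. Ager, Aqp5 and Hopx were lowest in replicate 3 of both groups, while the other 5, Sftpc and Scgb1a1 among them, were highest in replicate 3 of sham. In PNX 7 of the 8 were lowest in replicate 3 and 1 (Epcam) was highest there, with Sftpc at 1525, 1514 and 811 CPM. The part of these markers in the values above was not tested. Sema4a was the reverse of Sema3a, at 97.3, 101 and 215 CPM in sham against 101, 100 and 236 CPM in PNX. For Sema3a and Sema4a the difference between PNX and sham within a deposit was small, with log2 −0.11 ± 0.10 and 0.078 ± 0.087 with the block.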

How the data were processed

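RNA of CD31-selected lung ECs was sequenced as TruSeq stranded, paired-end libraries, 3 per group. The authors aligned the reads to mm10, with STAR listed in the submitters' processing notes, and deposited 1 table per library, with a count, FPKM and TPM for every RefSeq transcript. No source used here gives the annotation release, the strand setting or how reads were counted, so overlapping genes and near-identical copies are uncertain. The deposited FPKM values were not used, and the deposited TPM, whose depth is not kept, served for levels and ratios alone.

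Counts were summed per symbol, and replicates 1 and 2 of each group, which differed by little more than counting error, were summed to 1 sample. All genes were fitted with edgeR 4.0.16 in R 4.3.3 (TMM scaling, filterByExpr, quasi-likelihood test, Benjamini-Hochberg adjustment over all genes tested), with the group alone, and again with the deposit as a replicate block. Calls required both a log2 fold change beyond 1 in either direction and an adjusted p under 0.01, and a wider rule took an adjusted p under 0.05. CPM values are counts scaled to library size with TMM factors. SDs are over 2 samples per group. The deposit comes from the labels, and deviations of sham and PNX between deposits correlated across 16598 genes (r = 0.610, Spearman 0.666, across genes, which are not replicates). DESeq2 1.42.0 and limma 3.58.1, other scalings, no filter, single transcripts, 6 separate libraries and leaving out each replicate were tried. The scripts were tested on simulated data.

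Members picked for values were those called in any of 3 fits (both above and the 6 libraries). Each role group added its member with the highest sham TPM and those with the highest and lowest fold change. These fold changes were with the block, at a mean of at least 50 counts, and the rule gave 28 genes in all. Some of them, such as Ntn5, Slit2, Robo2 and Unc5c, are given in part. Several other members, such as Sema3g and Sema6a, are also given with values, and the rest are named by their group. The members and lists were chosen with earlier results of these data known. GENCODE vM21 (GRCm38) gave the positions of genes and their overlaps.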

Additional observations from a re-analysis of the deposited data

How the results depend on the processing

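All counts of calls below use an adjusted p under 0.01 with a log2 fold change beyond 1, unless another rule is given, and were 0 for members, all genes and the co-receptor and effector list in the 4 samples without a block. With the replicate block they were 3, 849 and 4. The 6 libraries gave 1, 409 and 1, and with the replicate block 4, 1104 and 4, but these fits treat near-duplicate libraries as replicates, so their p-values are too small. DESeq2 gave 3, 572 and 4, and with the replicate block 3, 813 and 4. The replicate block gave 3, 624 and 3 with DESeq2 size factors, 3, 629 and 3 with library size alone, and 3, 727 and 3 with the highest transcript. At an adjusted p under 0.05 with no minimum fold, the replicate block gave 24, 3584 and 16. Leaving out each library in turn gave 0 members, 0 to 2 genes and 0 of the list in the 4 samples. In the 6 libraries it gave 0 to 1 members and 0 to 2 of the list, with 517 genes when sham replicate 3 was left out, 332 and 49 for PNX replicates 3 and 2, and 0 for each other library. With the replicate block it gave 1 to 3 members and 3 to 4 of the list, the number of genes being 671 or 668 when sham replicate 1 or 2 was left out and 485 or 863 for PNX replicate 1 or 2. The calls of Ephb1 and Ephb2 with the block were lost without PNX replicate 1, with log2 fold changes of 1.57 and 1.66 there. Leaving out replicates 1 or 2 from the fit with the block was chosen after the data were seen, and the block could not be fitted with a test once a replicate 3 was left out. limma-voom, both other scalings without a block, the highest transcript without a block and no filter on low counts gave 0 members. Of the 812 log2 fold changes compared over 29 settings, 757 kept their direction and side of the threshold, 34 newly passed it and 21 turned in direction, in 6 genes that did not pass the first rule in any fit. Epha2 turned to −0.0073 with the 6 libraries and the replicate block, and without PNX replicate 3 to −0.16 (4 samples) and −0.14 (6 libraries), against up to 0.089 without other libraries. Without that library Epha4 was −0.043 in both fits, Ephb4 0.040 and Sema3e 0.025, and with other libraries left out they reached 0.23, −0.26 and −1.03. Unc5c turned to 0.017 with the 6 libraries, 0.062 with the block added, 0.11 and 0.21 without sham replicate 3, and 0.070 and 0.17 without PNX replicate 3, against −0.21 without PNX replicate 2. Ntn5, with few counts, was −0.048 with DESeq2 and the block, −0.17 and −0.23 without sham replicate 2, −0.29 and −0.028 without sham replicate 3, and −0.030, −0.15 and −0.040 without PNX replicate 1, against 0.68 without PNX replicate 3. The cause was not tested. Without PNX replicate 3 the log2 fold change in the 4 samples was 1.23 for Efna5, 1.03 for Ephb1 and 1.36 for Ephb2. Of members outside these 812 values, Ephb6 (−0.10 without PNX replicate 3) and Sema4d (0.50 without sham replicate 3) also turned in direction without the block. Depth limits members under about 1 CPM, such as Efna3, Efnb3 and Robo3.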
